A study of Mus musculus with 32 samples.

Results

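The genes described here are 10 genes of the p53 pathway and the DNA damage checkpoint, namely Trp53, Trp63, Mdm2, Mdm4, Atm, Atr, Chek1, Chek2, Brca1 and Brca2. They were chosen by name, with earlier results of these data known, and all 10 were found among the 13175 genes of the table. RNA of 32 single mouse oocytes of wild-type (WT) genotype was measured, 1 library per oocyte. The oocytes grew in preantral follicles that were either vitrified, that is cooled to a glass-like state for storage, or left fresh, and then cultured in the follicle growth system abbreviated eIVFG. Germinal vesicle (GV) oocytes, which are still arrested in the first meiotic prophase, were taken on day 8, with 4 from fresh and 4 from vitrified follicles. Metaphase II (MII) oocytes, which have matured and ovulated, were taken on day 9, with 12 from fresh and 12 from vitrified follicles. The questions were whether these genes differ between vitrified and fresh oocytes of a stage, and how they differ between the stages.

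As background, broken DNA is sensed by the kinase ATM and single-stranded DNA at stalled forks by the kinase ATR, and these pass the signal to CHK2 and CHK1. The kinases stabilise p53 and its relatives, which MDM2 and MDM4 otherwise hold in check, while BRCA1 and BRCA2 serve repair of breaks by homologous recombination. In oocytes, p63 is known as the family member that removes damaged cells of the resting reserve, and ATM-CHK2 signalling acts upstream of it.

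Depth ran from 10357543 to 17687247 counts in GV oocytes and from 5300208 to 12206512 in MII oocytes, so it moved with stage. The 10 oocyte markers, such as Gdf9 and Zp3, were detected in every group and summed to between 12467.8 and 31754 CPM per oocyte (counts scaled to a total of 1e6 per oocyte, with a correction for composition). Of the 12 cumulus and granulosa markers listed, 10 were in the table. Their sum was 66.2 to 134 CPM in GV oocytes and 64.6 to 185 in MII oocytes, apart from MII fresh replicate 11 (2598) and MII vitrified replicate 12 (421). Ptx3 and Tnfaip6, which mark expanded cumulus cells, had a median of 0 CPM in each group. Cyp19a1 of the same list had medians of 32.4 and 38.0 CPM in GV fresh and vitrified and 70.6 and 79.3 in MII fresh and vitrified oocytes. Nr5a2 had medians of 28.1, 27.4, 15.2 and 22.2 CPM in the same order. The rest of the list had medians of at most 11.8 CPM (Inha in GV vitrified oocytes). The 4 theca and stroma markers in the table summed to at most 8.77 CPM. The 2 genes of the blood cell list in the table, Cd68 and Pecam1, summed to 8.34 to 22.2 CPM in GV and 32.3 to 111 CPM in MII oocytes. Pecam1 had medians of 11.6, 14.3, 60.2 and 65.5 CPM in GV fresh, GV vitrified, MII fresh and MII vitrified oocytes. Those of Cd68 were 2.45, 1.11, 4.86 and 5.59 CPM. Ptprc, Hbb-bs and Hba-a1 of that list were not in the table, so the sum does not measure blood cell RNA. Without MII fresh replicates 1 and 11 and MII vitrified replicates 1 and 12, the members called between stages were again 7 in fresh and 7 in vitrified oocytes. Of the 11100 genes tested in that fit, 56.9% in fresh and 59.7% in vitrified oocytes were called. The part of the other marker lists in the results was not tested. The mouse or culture behind each oocyte is among the facts that the sources used here leave out, so p-values measure the spread between these oocytes, which may be partly technical. Library numbers of GV and MII oocytes do not overlap, and values of MII but not GV oocytes hold fractions, so library series, processing and stage cannot be told apart.

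The 3′ ends of the member transcripts are shown because the library kit, as background, starts cDNA from the poly(A) tail, which means that abundance and tail length both bear on what is counted. As further background, growing oocytes store many mRNAs with short tails and lengthen some of them during maturation, for which a polyadenylation signal and U-rich elements nearby are needed. The last 100 bases of the annotated principal transcript were searched on its own strand for the polyadenylation signals AATAAA and ATTAAA and for the U-rich elements TTTTAT and TTTTAAT, written as DNA. A signal was found for 8 of the 10 members and for 82.2% of 12427 genes searched in the same way, and a U-rich element for 3 members (Trp53, Mdm4 and Brca2) and 20.1% of genes. The 30 bases ending at the last signal are given 5′ to 3′ on the GRCm38 build from GENCODE M21 transcripts, for the members called between stages that have one, with motif matches in capitals.
Trp53, chr11:69591828-69591857, plus strand: ttatatatcaatttcctattttacAATAAA
Mdm2, chr10:117688915-117688944, minus strand: tggcattgatgttatttatttgcaAATAAA
Mdm4, chr1:132986234-132986263, minus strand: gcggTTTTATtgtgtttttgtgtgATTAAA
Trp63, chr16:25892045-25892074, plus strand: ccaggacatgcAATAAAatttaaaAATAAA
Brca1, chr11:101488778-101488807, minus strand: aaatgctgtgctgttaatactgcaAATAAA
Brca2, chr5:150569697-150569726, plus strand: ctacaactatcaTTTTATatacaaAATAAA
Atm, chr9:53439413-53439442, minus strand: acttctgctctaaaacaacctttaATTAAA
The U-rich element of Trp53 starts 26 bases before its signal, so the left edge of the stretch shown cuts it and it is not in capitals, while those of Mdm4 and Brca2 start 20 and 12 bases before theirs. No signal of these letters was in the window of Atr or Chek1. A match is a description of the sequence and not a measured tail.

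Trp53, Mdm2 and Chek1 showed the largest rises between the stages in both treatments, and between vitrified and fresh oocytes no member passed the test. In fresh oocytes 7 members (Trp53, Trp63, Mdm2, Mdm4, Chek1, Brca1 and Brca2) were higher in MII and 0 were lower, where 52.6% of the 11470 genes tested were called, 22.8% higher and 29.8% lower. In vitrified oocytes 5 members (Trp53, Trp63, Mdm2, Chek1 and Brca2) were higher and 2 (Atm and Atr) were lower, where 57% of genes were called, 23.3% higher and 33.7% lower. A call here is a Benjamini-Hochberg adjusted p under 0.05 over all genes tested, from the quasi-likelihood F test of edgeR (two-sided), and every log2 fold change is given with its standard error. The median log2 fold change of the members was 0.96 in fresh and 0.53 in vitrified oocytes, against −0.23 and −0.34 over all genes. The zero point rests on the scaling. With library size as the only scaling the medians of all genes were −0.61 and −0.81, the split of calls moved from 2615 higher and 3413 lower to 1992 and 4142 in fresh oocytes, and from 2678 and 3861 to 1945 and 4703 in vitrified ones. Under that scaling 4 members were called in fresh oocytes, all higher (Trp53, Trp63, Mdm2 and Chek1), and 6 in vitrified ones, 3 higher (Trp53, Mdm2 and Chek1) and 3 lower (Atm, Atr and Mdm4). Of all genes 53.5% in fresh and 58% in vitrified oocytes were called under it. The MII libraries carry numbers under 20 or of 20 and over. With only those under 20 the calls were 7 in fresh and 7 in vitrified oocytes, where 52.2% and 56.4% of genes were called. With only the others they were 6 and 4, where 46.2% and 51% of genes were called. The calls lost there were Mdm4 in fresh (0.97, edgeR adjusted p = 0.0848) and Trp63 (0.84), Atm (−1.53) and Brca2 (0.49) in vitrified oocytes.

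Trp53 (chr11:69580359-69591873 on GRCm38, plus strand) encodes the transcription factor p53. Its level in GV fresh oocytes was 18.7, 37.7, 33.2 and 22.5 CPM in replicates 1 to 4, and in GV vitrified oocytes 11.9, 30.9, 27.3 and 31.7. MII fresh oocytes ran from 111 to 228 CPM with a median of 157, and MII vitrified oocytes from 143 to 249 with a median of 181. Every MII oocyte was above every GV oocyte of either treatment, and the 2 treatments overlapped within both stages. The means were 164 ± 36.0 CPM (SD, n = 12) in MII fresh and 28.0 ± 8.93 (SD, n = 4) in GV fresh oocytes, a ratio of 5.86, and the ratio of means in vitrified oocytes was 7.47. The log2 fold change of MII against GV was 2.55 ± 0.26 in fresh (edgeR adjusted p = 2.43e-10) and 2.90 ± 0.26 in vitrified oocytes (adjusted p = 1.77e-11). A processed pseudogene of Trp53 is annotated on another chromosome, so reads could be shared between near-identical copies.

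Trp63 (chr16:25683763-25892102, plus strand) encodes p63, the p53 relative best known from the oocyte reserve. Its level in GV fresh oocytes was 14.3, 5.86, 20.4 and 6.47 CPM and GV vitrified oocytes 24.4, 16.2, 16.1 and 9.38. The MII fresh group ran from 18.3 to 34.2 CPM with a median of 29.1, and MII vitrified oocytes from 19.8 to 47.0 with a median of 36.2. Most MII oocytes lay above the GV oocytes, but the highest GV oocyte of each treatment fell within the MII range. The rise with stage was 1.26 ± 0.31 on the log2 scale in fresh (edgeR adjusted p = 8.06e-04) and 1.07 ± 0.30 in vitrified oocytes (adjusted p = 0.00308), smaller than that of Trp53 in both. The difference between the 2 genes' rises was not tested.

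Mdm2 (chr10:117688875-117710758, minus strand) encodes the ubiquitin ligase that marks p53 for degradation and is itself a p53 target. Mdm2 was at 96.4, 119.98, 72.3 and 128 CPM in GV fresh oocytes and at 95, 93.4, 78.1 and 113 CPM in GV vitrified ones. At the MII stage, fresh oocytes ran from 208 to 948 CPM with a median of 429, and MII vitrified oocytes from 339 to 598 with a median of 473. No MII oocyte fell into the GV range, and the widest spread was in MII fresh oocytes, where replicates 5 (948 CPM) and 10 (792 CPM) were highest. Mdm2 rose by 2.18 ± 0.28 on the log2 scale with stage in fresh (edgeR adjusted p = 5.93e-08) and by 2.30 ± 0.29 in vitrified oocytes (adjusted p = 2.01e-08).

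Mdm4 (chr1:132959484-133030561, minus strand) encodes the p53 inhibitor that pairs with MDM2. The 4 GV fresh oocytes had 789, 830.3, 1957 and 584 CPM, and GV vitrified oocytes 5647, 1881, 962 and 1055. MII fresh oocytes ran from 1405 to 2549.8 CPM with a median of 1936, and MII vitrified oocytes from 1191 to 2373 with a median of 1738. GV vitrified replicate 1 exceeded every other oocyte of the study, and GV fresh replicate 3 stood above the other 3 of its group. In fresh oocytes the log2 fold change with stage was 0.91 ± 0.32 (edgeR adjusted p = 0.0173), and in vitrified oocytes it was −0.43 ± 0.30 (adjusted p = 0.226). The call in fresh oocytes was lost without GV fresh replicate 1 (0.79, adjusted p = 0.0696), 2 (0.81, adjusted p = 0.0651) or 4 (0.71, adjusted p = 0.0943), and without replicate 3 the value was 1.44. It was also lost with RLE size factors (0.74, adjusted p = 0.0501) and with library size only (0.59). In vitrified oocytes the value was 0.47 without GV vitrified replicate 1, and with library size only Mdm4 was called lower (−0.77, adjusted p = 0.0102). A processed pseudogene of Mdm4 is annotated on the X chromosome.

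Atm (chr9:53439149-53536740, minus strand), the kinase that answers double-strand breaks, was among the lowest members. It was at 9.03, 2.87, 8.39 and 6.09 CPM in GV fresh oocytes and at 10.7, 11.9, 2.51 and 2.79 CPM in GV vitrified ones. The MII fresh group ran from 0.616 to 11.2 CPM with a median of 3.38, and MII vitrified oocytes from 0 to 5.12 with a median of 1.76. The counts behind these were 55 to 236 in GV and 0 to 76 in MII oocytes, and the groups overlapped. Atm was called lower in MII than in GV among vitrified oocytes (−1.76 ± 0.68, edgeR adjusted p = 0.0256), and its value in fresh oocytes was −0.68 ± 0.70, which did not pass. The call in vitrified oocytes was lost without GV vitrified replicate 1 (adjusted p = 0.105) or 2 (adjusted p = 0.133), the 2 GV vitrified oocytes with the most Atm.

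Atr (chr9:95857597-95951781, plus strand), the kinase that answers stalled replication, was at 22.6, 19.2, 17.3 and 12.8 CPM in GV fresh and 33.8, 19.7, 27.1 and 39.3 CPM in GV vitrified oocytes. At the MII stage, fresh oocytes ran from 6.78 to 20.6 CPM with a median of 13.05, and MII vitrified oocytes from 4.23 to 17.5 with a median of 10.8. Every MII vitrified oocyte was below every GV vitrified oocyte, while the fresh stages overlapped. Atr fell by 1.51 ± 0.32 on the log2 scale with stage in vitrified oocytes (edgeR adjusted p = 1.30e-04). In fresh oocytes its value was −0.39 ± 0.33, which did not pass. Exons of Atr overlap 2 annotated genes on the opposite strand by 726 and 462 bases, and a small nuclear RNA gene on the same strand by 178 bases. The use of strand in counting is not stated in the sources used here.

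Chek1 (chr9:36708482-36727065, minus strand) encodes CHK1, the kinase below ATR that restrains entry into division. GV fresh oocytes had 404, 325, 719 and 254 CPM and GV vitrified oocytes 528, 415, 400.0 and 334. MII fresh oocytes ran from 1199 to 2690.2 CPM with a median of 1707, and MII vitrified oocytes from 1238 to 3749 with a median of 2037. No GV oocyte reached the lowest MII oocyte. The ratio of MII to GV means was 4.17 in fresh and 5.26 in vitrified oocytes, with log2 fold changes of 2.06 ± 0.28 (edgeR adjusted p = 1.57e-07) and 2.40 ± 0.29 (adjusted p = 1.04e-08). Trp53, Mdm2 and Chek1 were thus the 3 members whose stages did not overlap in fresh oocytes, where 31% of genes did not, and with Atr they made 4 in vitrified oocytes, where 33.9% did not.

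Chek2 (chr5:110839979-110874145, plus strand) encodes CHK2, the kinase below ATM. GV fresh oocytes had 0.567, 0.416, 3.41 and 1.19 CPM and GV vitrified oocytes 0.0895, 1.66, 5.20 and 2.38. The MII fresh group ran from 0.127 to 3.63 CPM with a median of 1.57, and MII vitrified oocytes from 0.417 to 3.34 with a median of 1.86. The lowest oocytes rested on 1 count and the highest on 120, and the groups overlapped throughout. The log2 fold change with stage was 0.16 ± 0.77 in fresh and −0.32 ± 0.75 in vitrified oocytes, and neither passed the test. The sign in fresh oocytes turned with RLE size factors (−0.029), library size only (−0.095) and DESeq2, so no direction with stage is given for Chek2.

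Brca1 (chr11:101488764-101551955, minus strand) was at 62.9, 44.6, 26.4 and 49.0 CPM in GV fresh and 84.3, 54.1, 41.9 and 54.2 CPM in GV vitrified oocytes. At the MII stage, fresh oocytes ran from 49.2 to 134 CPM with a median of 87.2, and MII vitrified oocytes from 53.7 to 122 with a median of 80.4. The MII ranges began within the GV ranges. Brca1 was higher in MII among fresh oocytes (0.98 ± 0.28, edgeR adjusted p = 0.00358), a call lost with library size only (0.56). Among vitrified oocytes its value was 0.46 ± 0.27 (adjusted p = 0.144), and 0.71 (adjusted p = 0.0474) without GV vitrified replicate 1, the GV oocyte with the most Brca1.

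Brca2 (chr5:150522630-150570329, plus strand) encodes a protein of repair by homologous recombination. Its exons overlap an annotated gene on the opposite strand by 41 bases. GV fresh oocytes had 141, 168, 111 and 156 CPM and GV vitrified oocytes 181, 161, 194 and 195. MII fresh oocytes ran from 165 to 444 CPM with a median of 270.3, and MII vitrified oocytes from 128 to 363 with a median of 285. The stages overlapped in both treatments. Brca2 was higher in MII by 0.95 ± 0.25 on the log2 scale in fresh oocytes (edgeR adjusted p = 0.00175) and by 0.59 ± 0.25 in vitrified ones (adjusted p = 0.0402). The second call sits near the threshold: it was lost in 12 of the 16 fits that leave out 1 vitrified oocyte (values of 0.53 to 0.66), among them each of the 4 GV vitrified replicates. It was also lost in 5 of the 12 other alternatives. One of these was DESeq2, which called 4 members higher and 2 lower in vitrified oocytes. With library size only the value was 0.0747, and that scaling also took the call in fresh oocytes (0.55).

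**Figure D1:**
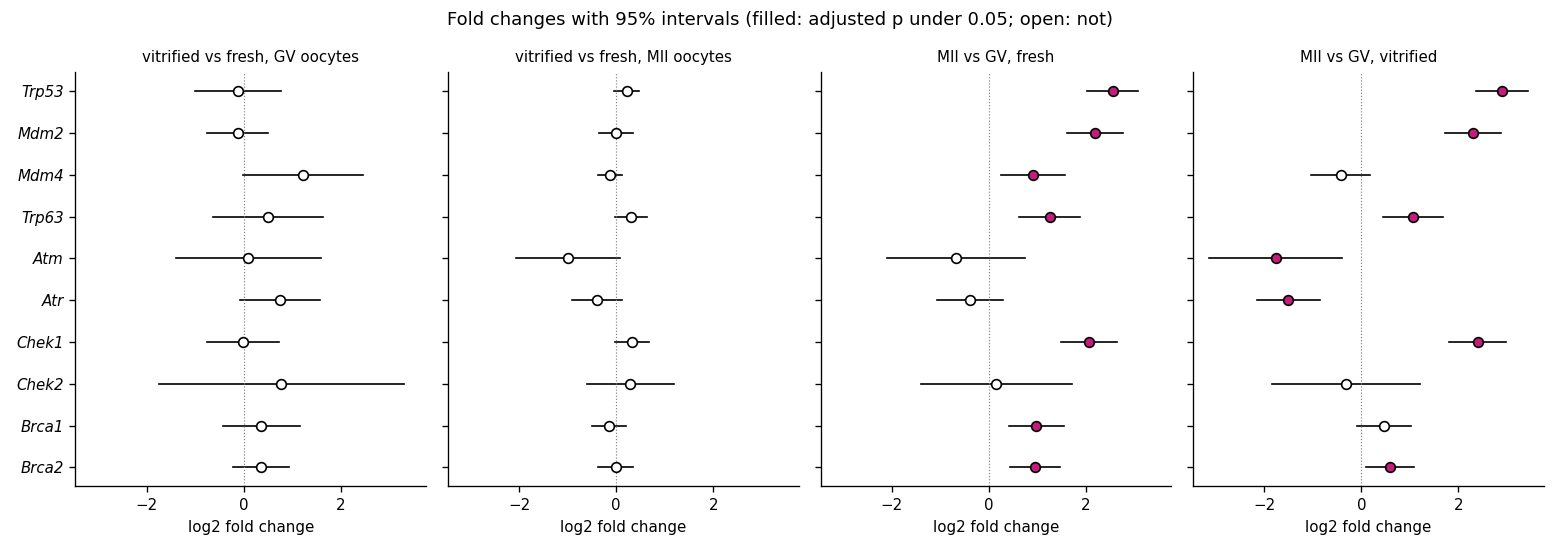
Log2 fold change of each member with its 95% interval in the 4 comparisons, filled where the edgeR adjusted p was under 0.05. Trp53, Mdm2 and Chek1 lie at or above 2.06 in both stage comparisons, and no member is filled in the comparisons of vitrified with fresh oocytes.

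Levels were compared between members per kilobase of the union of annotated exons, which counts long untranslated and retained stretches, so the order depends on that length. In MII fresh oocytes the order was Chek1 (mean 383 CPM per kb), Mdm4 (132), Mdm2 (93.0), Trp53 (40.6), Brca2 (20.4), Brca1 (10.6), Trp63 (3.34), Atr (0.580), Chek2 (0.514) and Atm (0.397). Chek1 was above Mdm4 in 12 of 12 oocytes with no overlap, and ranked 122 of 13059 genes with a length. Neighbours lower in the order overlapped, apart from Brca1 with Trp63 and Trp63 with Atr. Chek2 was above Atm in 6 of 12 oocytes and below Atr in 8, so the last 3 places are not settled by these oocytes. In GV fresh oocytes Chek1 (91.8) and Mdm4 (70.3) also led, with overlapping ranges, while Trp53 (6.93) overlapped Brca1 (5.36) and stood above it in 2 of 4 oocytes. The kinases Atm, Atr and Chek2 took the last 3 places in all 4 groups.

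In GV oocytes no member differed between vitrified and fresh follicles by the edgeR test, where 0% of 10831 genes were called and 1.66% had an unadjusted p under 0.05. None of the 10 had an unadjusted p under 0.05, DESeq2 gave 1 and limma-voom 0 at that level, and neither tool called a member. The smallest p belonged to Mdm4 (1.23 ± 0.57, unadjusted p = 0.0508, adjusted p = 1.00), and the value was 0.33 without GV vitrified replicate 1 and 1.72 without GV fresh replicate 3. Atr followed with 0.75 ± 0.38 (adjusted p = 1.00). The 95% interval lay between −1 and 1, that is within 2-fold, for 3 members (Mdm2, Chek1 and Brca2) and for 18.9% of all genes. For Trp53 the interval was −1.01 to 0.76 and for Chek2 −1.75 to 3.30, so changes of 2-fold lay inside the interval of most members. No member's groups failed to overlap, against 2.05% of genes.

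In MII oocytes, with 12 against 12, the intervals were narrower and again no member was called, where 0% of 8428 genes were called and 12.5% had an unadjusted p under 0.05. No member had an unadjusted p under 0.05 with edgeR or DESeq2 or limma-voom. DESeq2 called 52 genes and none of the 8 members to which it gave an adjusted p, which it did not give to Atm and Chek2. Trp53 was at 190.2 ± 32.1 CPM (SD, n = 12) in vitrified and 164 ± 36.0 in fresh oocytes, a log2 difference of 0.22 ± 0.13 (edgeR adjusted p = 0.470). Trp63 was at 0.31 ± 0.16 (adjusted p = 0.430) and Chek1 at 0.32 ± 0.17 (adjusted p = 0.440). Atm had the largest value, −0.99 ± 0.52 (adjusted p = 0.439), on at most 76 counts per oocyte. Mdm2 and Brca2 were at −0.00 ± 0.17 and −0.01 ± 0.17. The 95% interval lay within 2-fold for 8 of 10 members, all but Atm and Chek2, and for 63.8% of all genes. For Trp53 it was −0.04 to 0.48, for Mdm2 −0.36 to 0.35 and for Brca2 −0.36 to 0.34.

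Of the MII libraries 7 fresh and 7 vitrified ones carry numbers under 20 and 5 and 5 carry higher ones, and vitrified was compared with fresh within each series. Chek1 was at 0.61 ± 0.21 (edgeR adjusted p = 0.168) in numbers under 20, with means of 1679 CPM fresh and 2542 vitrified, and at −0.16 ± 0.18 in numbers of 20 and over, with means of 1909.6 and 1731. Brca1 was at −0.33 and 0.065 and Chek2 at −0.16 and 1.30 in the 2 series. Atm (−1.01 and −0.98), Atr (−0.39 and −0.41) and Trp63 (0.38 and 0.15) kept their sign. Trp53 was at 0.11 and 0.39. No member was called in either series, and the difference between the series was not tested.

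**Figure D2:**
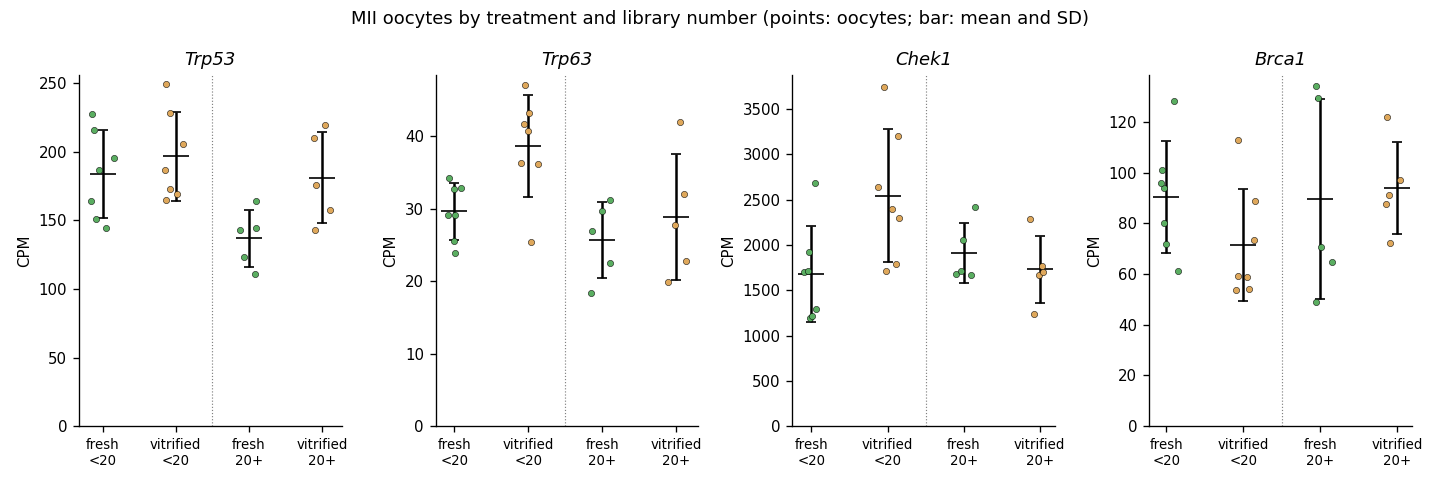
CPM of Trp53, Trp63, Chek1 and Brca1 in each MII oocyte by follicle treatment and library number series (7 oocytes per treatment under 20, and 5 of 20 and over). Chek1 means were 1679 fresh and 2542 vitrified in the lower numbers and 1909.6 and 1731 in the higher ones.

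Whether the stage change differed between treatments was tested as the interaction in the fit of all 32 oocytes. No member was called (0% of 11470 genes were, and 4.07% had an unadjusted p under 0.05), by edgeR, DESeq2 or limma-voom, each of which gave 2 members an unadjusted p under 0.05. With edgeR these were Mdm4 (−1.34 ± 0.43, unadjusted p = 0.00402, adjusted p = 0.911) and Atr (−1.12 ± 0.49, unadjusted p = 0.0271, adjusted p = 1.00). The Mdm4 value was −0.45 without GV vitrified replicate 1. The calls of Atm and Atr in vitrified oocytes, and of Mdm4 and Brca1 in fresh ones, are thus not shown to differ between treatments.

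Around the members stand 5 lists of pathway genes. In each list 0 genes were called between vitrified and fresh oocytes of either stage and in the interaction, by edgeR, DESeq2 and limma-voom, where between 0 and 3 genes per list had an unadjusted p under 0.05. In GV oocytes the smallest p per list belonged to Btg2 (−0.94 ± 0.41), Huwe1 (0.57 ± 0.36), Xrcc6 (0.67 ± 0.30), Wee2 (0.31 ± 0.27) and Sem1 (−0.56 ± 0.25), each with an edgeR adjusted p of 1.00. In MII oocytes it belonged to Polk (0.65 ± 0.35), Huwe1 (−0.54 ± 0.27), Topbp1 (−0.72 ± 0.24), Wee2 (0.27 ± 0.10) and Fanci (−0.80 ± 0.27), with adjusted p from 0.249 to 0.452. Between the stages genes of each list were called in both directions. Over all genes 22.8% were higher and 29.8% lower in fresh oocytes, and 23.3% and 33.7% in vitrified ones. Of 18 p53 target genes tested among 23 in the table, 6 were higher and 3 lower in MII fresh oocytes, and 7 and 3 in vitrified ones. The nucleotide excision repair gene Ddb2 (3.96 ± 0.32 in fresh, 3.72 ± 0.32 in vitrified) and the stress gene Gadd45a (3.44 ± 0.57 and 4.09 ± 0.60) rose, as did the ribonucleotide reductase subunit Rrm2b (1.29 ± 0.30 and 2.16 ± 0.32). The glycolysis regulator Tigar (−3.52 ± 0.27 and −3.20 ± 0.27), the pore-forming death gene Bax (−2.92 ± 0.40 and −3.07 ± 0.40) and Ei24 (−1.29 ± 0.43 and −1.73 ± 0.43) fell. The list's median was −0.04 in fresh and 1.09 in vitrified oocytes, against −0.23 and −0.34 over all genes.

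Of 21 p53 family regulators and cofactors tested, 7 were higher and 3 lower in MII fresh oocytes, and 6 and 4 in vitrified ones, with medians of 0.52 and 0.45. The ubiquitin ligase Rchy1 (1.88 ± 0.25 and 1.84 ± 0.25), the casein kinase Csnk1e (1.62 ± 0.26 and 2.08 ± 0.27) and the lysine methyltransferase Kmt5a (1.26 ± 0.23 and 1.93 ± 0.24) rose. Another casein kinase, Csnk1d, fell (−1.32 ± 0.56 and −1.505 ± 0.56), as did the third family member Trp73 (−2.68 ± 0.77 and −1.93 ± 0.78). The p53 inhibitor Ppp1r13l was called lower in fresh oocytes (−2.33 ± 0.79), with a value of −1.52 ± 0.81 in vitrified ones. The ubiquitin ligase Huwe1 (−1.18 ± 0.35) and the p53 cofactor Ppp1r13b (−1.23 ± 0.50) were called lower in vitrified oocytes, with values of −0.092 ± 0.37 and −0.35 ± 0.52 in fresh ones. Of 26 damage sensors and mediators 7 rose and 7 fell in each treatment. That is close to the share of all genes called, 52.6% in fresh and 57% in vitrified oocytes. The clamp loader Rad17 (1.35 ± 0.27 and 1.63 ± 0.27), the clamp subunit Hus1 (1.19 ± 0.28 and 1.70 ± 0.29) and Timeless (1.47 ± 0.24 and 1.35 ± 0.24) rose. The single-strand binding subunit Rpa2 (−4.49 ± 0.39 and −4.96 ± 0.40) and the Ku subunits Xrcc5 (−3.02 ± 0.32 and −3.99 ± 0.33) and Xrcc6 (−2.34 ± 0.31 and −3.71 ± 0.31) fell.

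Of 10 checkpoint effectors on the cell cycle, 3 rose and 4 fell in fresh and 4 rose and 5 fell in vitrified oocytes, with medians of −0.67 and −0.81. Of all genes 52.6% in fresh and 57% in vitrified oocytes were called. The CDK1-inhibiting kinases split: Wee2, the form of oocytes (2.14 ± 0.17 and 2.11 ± 0.17), and Pkmyt1 (2.30 ± 0.41 and 2.14 ± 0.41) rose, while Wee1 fell (−2.91 ± 0.77 and −2.87 ± 0.77). Plk1 also rose (1.51 ± 0.28 and 1.63 ± 0.28). The phosphatase Cdc25c, a target of the checkpoint kinases, fell (−3.14 ± 0.70 and −3.97 ± 0.72), as did Fzr1, an activator of the anaphase-promoting complex (−3.64 ± 0.44 and −3.20 ± 0.44). Of 28 genes of BRCA complexes and homologous recombination tested, 11 rose and 11 fell in fresh and 10 and 10 in vitrified oocytes, with medians of 0.40 and 0.24. Palb2, which joins BRCA1 to BRCA2 (2.33 ± 0.23 and 2.30 ± 0.22), the end-resection gene Rbbp8 (1.99 ± 0.23 and 1.95 ± 0.23) and Fancd2 (2.74 ± 0.34 and 2.37 ± 0.33) rose. Sem1, a small partner of BRCA2 (−3.42 ± 0.37 and −3.49 ± 0.37), and Uimc1 (−2.93 ± 0.35 and −3.64 ± 0.35) fell.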

How the data were processed

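RNA of 32 oocytes was sequenced from SMART-Seq v4 libraries, per the labels. Per the submitters' processing notes, the tools were HISAT2 and featureCounts and the build mm10, and versions and strand settings are not given in the sources used here. Per the values, the deposited data of GV oocytes are whole counts, and those of MII oocytes resemble the authors' expected counts, since 11.7% to 19.7% of values per oocyte are not whole. The step behind this is not stated in the sources used here. All were rounded and taken as counts. Of 13202 entries 27 exact repeats were removed, and 376 of the 13175 genes were at 0 in all GV oocytes while the lowest total over MII oocytes was 10, so the authors' table follows MII values. Genes counted only in GV oocytes are therefore absent from the shares and medians over all genes.

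Low counts were filtered by filterByExpr in edgeR 4.0.16 (minimum 10 counts, 15 in total) and sizes scaled by TMM. Treatments were compared within a stage, and stages and the interaction in 1 fit of all 32 oocytes with 4 group means, by the edgeR quasi-likelihood F test in R 4.3.3 with Benjamini-Hochberg adjustment at 0.05. The script was tested on simulated data. DESeq2 1.42.0, limma-voom of limma 3.58.1, other scalings, filters, rounding, a replicate block, the library series and leaving out each oocyte were tried as alternatives. Exon lengths, positions and 3′ ends came from GENCODE M21 on GRCm38.

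The members, lists and alternatives were chosen with earlier results of these data known. All 10 members were named in each comparison. Of each pathway list, up to 3 genes called per direction and comparison with the smallest p are named. Where none was called, the rule takes the 2 with the smallest p, of which the first is printed for the treatment comparisons and none for the interaction. A gene that this rule names among the recombination genes is not reported here. The lowest chi-square per degree of freedom between libraries of a group was 17.9, so none was counted as deposited again.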

Additional observations from a re-analysis of the deposited data

How the results depend on the processing

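Under every alternative tried, leave-one-out fits included, Trp53, Mdm2 and Chek1 were called higher in MII oocytes in both treatments, Trp63 higher in fresh and Atr lower in vitrified oocytes, and no member was called between treatments or in the interaction. Their log2 fold changes in fresh oocytes ran from 2.16 to 2.74 for Trp53, 1.78 to 2.30 for Mdm2 and 1.71 to 2.27 for Chek1 over alternatives other than leave-one-out. The members called numbered 4 in place of 7 in fresh oocytes with library size only, where 53.5% of all genes were called. They numbered 4 in place of 7 in vitrified oocytes with MII library numbers of 20 and over, where 51% were. Smaller losses also occurred, such as with DESeq2, which called 4 higher and 2 lower in vitrified oocytes and 58.3% of all genes. Leaving out 1 oocyte gave 6 to 7 calls in fresh and 5 to 7 in vitrified oocytes, and 0 in the other comparisons. In these fits 46.1% to 55.1% of all genes were called between stages in fresh oocytes, and 51.4% to 58% in vitrified ones.

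Signs turned only for values that had not passed the test, and the cause was not tested. In GV oocytes Chek1 was 0.0206 with DESeq2, 0.0949 with limma-voom, 0.0205 with RLE, 0.0358 without a filter and 0.0927 with the replicate block, and Atm was −0.20 with limma-voom and −0.17 with the block. In MII oocytes Mdm2 was 0.0813 with limma-voom, 0.0842 with the block and 0.13 in library numbers of 20 and over, and Brca2 was 0.00107 with the block and 0.0434 in those numbers. In the same numbers Chek1 was −0.16 and Brca1 0.0654, and Chek2 was −0.16 in numbers under 20. With stage in fresh oocytes Chek2 was −0.00954 with DESeq2, −0.0288 with RLE, −0.0948 with library size only, −0.77 in numbers of 20 and over and −0.00138 without 4 MII oocytes (replicates 1 and 11 fresh, 1 and 12 vitrified) chosen for cumulus transcripts from earlier results of these data. On the marker list used here, only replicates 11 fresh and 12 vitrified of these stood apart. In vitrified oocytes Chek2 was 0.17 with limma-voom and 0.28 with the block. The interaction was −0.18 for Chek1 and 0.52 for Chek2 in numbers of 20 and over, and −0.0164 for Mdm2 without the 4 oocytes. Over leave-one-out fits, values that turned ran from −0.26 to 0.11 (Trp53), −0.24 to 0.38 (Atm) and −0.19 to 0.36 (Chek1) in GV oocytes, −0.0696 to 0.13 (Mdm2) and −0.0678 to 0.0667 (Brca2) in MII oocytes, −0.15 to 1.12 (Chek2, stage, fresh), −0.69 to 0.47 (Mdm4, stage, vitrified), −0.68 to 0.43 (Chek2, stage, vitrified), and in the interaction −0.62 to 0.0660 (Trp63), −0.0623 to 0.52 (Chek1) and −1.41 to 0.28 (Chek2).

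For fresh and vitrified oocytes of the same replicate number, correlations of their deviations ran from −0.46 to 0.27 in GV and −0.37 to 0.33 in MII oocytes. The best match was the oocyte of the same replicate number for 1 of 4 in GV and 0 of 12 in MII oocytes. Replicate numbers differ from library numbers. Pairing by library number was not tested, so whether the samples are paired is not settled. With the replicate block 7 members were called in fresh and 7 in vitrified oocytes between stages and 0 otherwise. Of all genes 47.3% in fresh and 51.6% in vitrified oocytes were called between stages with it. Atm and Chek2 were not tested with a mean CPM of at least 10, and DESeq2 gave them no adjusted p between treatments in MII oocytes. Their counts, down to 0 and 1, limit what can be read from them.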
